A study of Bos taurus with 96 samples.

Results

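The genes described are 4 enzymes of steroid metabolism in the liver of dairy cows, namely CYP11A1 (ENSBTAG00000006934), AKR1C1 (ENSBTAG00000022570), SULT1E1 (ENSBTAG00000011952) and CYP1B1 (ENSBTAG00000010531). They were followed by identifier among the 24616 gene rows of the count data, through late pregnancy (LP), early lactation on the day after calving (EL) and mid lactation (ML), with muscle of the same animals beside liver. The study picked all of them for a difference between genotypes in liver at ML, a choice not made on the change from LP to EL. CYP11A1 was in the study's liver lists at 2 time-points and AKR1C1 in its muscle lists at 2. The 4 genes were also taken up here with earlier results of these data known, so no contrast is fully independent of the choice. The contrasts with ML share those ML libraries with the choice and are not independent of it. Liver was taken by puncture biopsy and semitendinosus muscle with a biopsy punch from 16 Holstein cows that differed in breeding value for fertility, good in 8 of them (Fert+) and poor in the other 8 (Fert-), at similar merit for milk. All cows calved and lactated, and none was bred in the sampled lactation, so the cows were not pregnant at EL and ML. There was no untreated control and no group of cows that did not calve. Each cow gave a library for both tissues at each time-point, 96 libraries in all. Genotype here means a class of breeding value, and no single allele was followed.

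Steroid hormones are made from cholesterol in the adrenal gland, ovary and placenta, and the liver is the main site where they are taken from the blood and inactivated. CYP11A1 is the mitochondrial side-chain cleavage enzyme that turns cholesterol into pregnenolone, the step that opens steroid synthesis. AKR1C1 is named after an aldo-keto reductase that acts on progesterone and other ketosteroids, and the study lists it among prostaglandin synthases. SULT1E1 attaches sulfate to oestrogens and thereby inactivates them, and CYP1B1 is a P450 that hydroxylates oestradiol to catechol oestrogens. Around calving, progesterone falls and oestrogens rise and then fall in the blood of the cow, and in high-yielding cows the liver is known for rapid steroid clearance.

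Expression is given in CPM, the read count of a gene per 1000000 counts of its library after TMM scaling (a factor per library that centres most genes), without correction for gene length, so levels are compared within a gene and not between genes. Libraries held 14966847 to 26358063 counts in liver and 15279337 to 22018740 in muscle. Over the 48 liver libraries CYP11A1 had 73039 counts in total, AKR1C1 24040, SULT1E1 9008 and CYP1B1 1663, and no liver library was at 0 for any of them. CYP1B1 rested on 1 to 221 counts per library with a median of 21, so its low values are the least precise. Some liver libraries stood apart. Between the libraries labelled LP and EL of cow 426, only 16 of the 300 genes with the clearest time course in the other cows changed the same way as there, and the liver libraries of cows 3434 (EL versus LP) and 996 (ML versus EL) also changed against the rest on average. The EL library of cow 3847 had a median correlation of 0.838 with the other liver libraries of all time-points and both genotypes. In 13 libraries, 8 of them of liver, 11 or more of a set of 19 genes had at least 50 counts, against at most 3 of them in every other library, and these 13 are called set B. The results are given with and without these libraries where they bear on them.

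**Figure D1:**
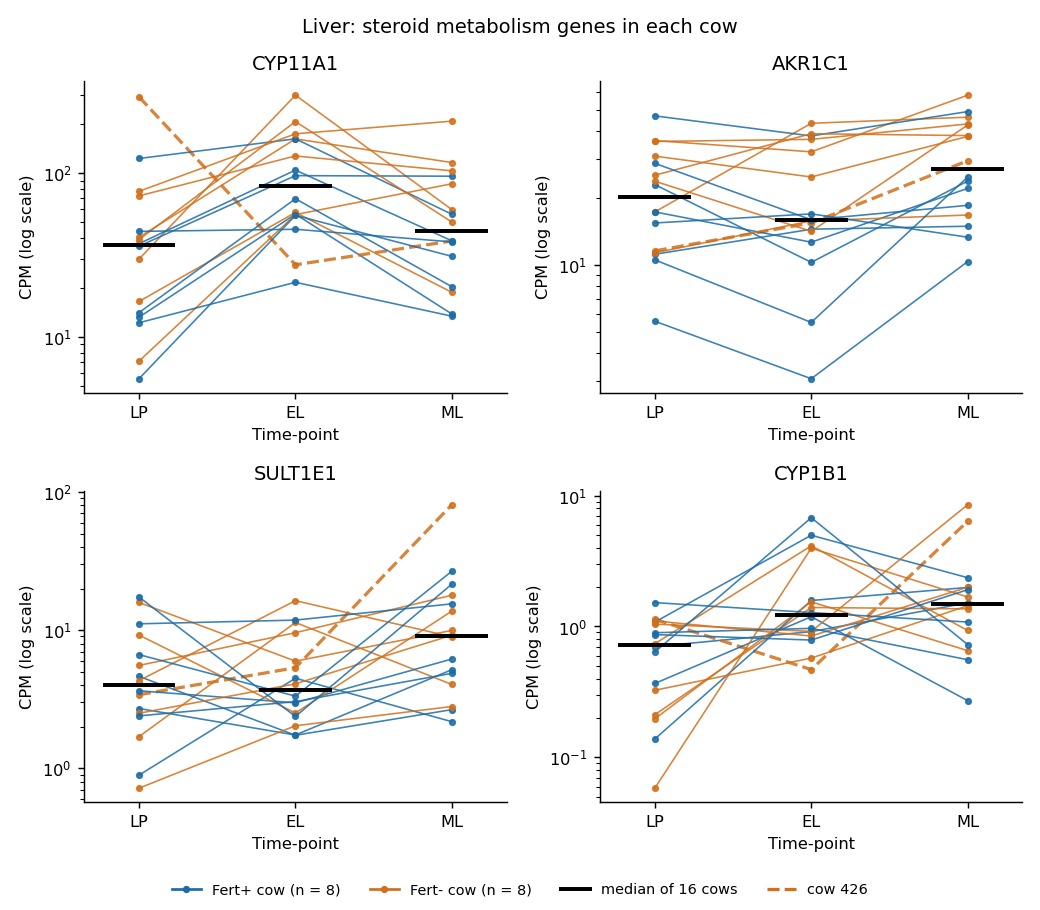
Expression in liver in CPM (vertical axis, log scale) at LP, EL and ML (horizontal axis) for each of the 16 cows, with Fert+ cows in blue, Fert- cows in orange, cow 426 dashed and the median as a black bar. The median of CYP11A1 went from 36.4 at LP to 83.1 at EL and 44.4 at ML, and cow 426 ran against the other cows.

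CYP11A1 was higher on the day after calving than before it. At LP its expression in liver ranged from 5.55 CPM (cow 3397) through a median of 36.4 to 292 CPM (cow 426), at EL from 21.5 CPM (cow 3847) through 83.1 to 299 CPM (cow 419), and at ML from 13.4 CPM (cow 3847) through 44.4 to 208 CPM (cow 829). The ranges overlapped, but 15 of the 16 cows were higher at EL than at LP and the exception was cow 426, in which the value fell by 3.36 on the log2(CPM + 1) scale. The log2 fold change of EL versus LP was 1.42 ± 0.35 (SE), 2.68-fold, with an adjusted p of 0.0301 (edgeR's quasi-likelihood test with cow as a block), and an exact sign-flip permutation test over the 16 within-cow differences gave p = 0.00449 (two-sided, smallest possible 3.05e-05). From EL to ML the gene fell in 13 of 16 cows, by 0.93 ± 0.33 on the log2 scale (adjusted p 0.025, edgeR; exact permutation p = 0.00336). ML and LP did not differ beyond the spread between cows (0.49 ± 0.35, adjusted p 0.36, edgeR; 13 of 16 cows higher, exact permutation p = 0.154). Without cow 426 this log2 fold change was 0.76 (adjusted p 0.0633, edgeR), and without cows 426, 996 and 3434 it was 0.65 (adjusted p 0.0814, edgeR), with 12 of 13 cows higher (exact permutation p = 0.0234).

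The EL call for CYP11A1 depended on which cows entered the fit. Without cow 426 alone the log2 fold change was 1.70 with an adjusted p of 0.000294, and without cows 426, 996 and 3434 it was 1.78 ± 0.24 (adjusted p 0.000109), with 13 of 13 cows higher. These cows were left out because of the time course of many genes, which is not independent of the change tested. The call was lost in the fits without cow 33, 164, 419, 756, 782, 982, 1179, 3397 or 3445 (log2 fold change 1.28 to 1.70 over all 16 such fits, largest adjusted p 0.0764) and without the set B libraries (1.23 ± 0.41, adjusted p 0.241), where edgeR called 0 of 13773 genes and 1624 had an unadjusted p under 0.05. Over 26 alternative fits the adjusted p ranged from 5.85e-18 to 0.241. The fall from EL to ML was lost without cow 3445, 419 or 982 (log2 fold change -1.08 to -0.81 over the 16 fits, largest adjusted p 0.0536) and without set B (-0.72, adjusted p 0.177).

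AKR1C1 in liver was highest in mid lactation. At LP it ranged from 5.58 CPM (cow 3445) through a median of 20.2 to 46.9 CPM (cow 430), at EL from 3.07 CPM (cow 3445) through 15.9 to 43.4 CPM (cow 419), and at ML from 10.4 CPM (cow 3445) through 27.2 to 58.1 CPM (cow 164). Cow 3445 was thus the lowest at every time-point, and the ranges of the time-points overlapped in most of their length. The change over calving was small and went both ways, up in 7 and down in 9 cows (-0.12 ± 0.16, adjusted p 0.69, edgeR; exact permutation p = 0.42). Expression at ML was above that at EL in 14 of 16 cows, by 0.63 ± 0.16 on the log2 scale or 1.55-fold (adjusted p 0.00205, edgeR; exact permutation p = 0.00113). It was also above that at LP in 14 of 16 cows, by 0.51 ± 0.16 or 1.43-fold (adjusted p 0.0251, edgeR; exact permutation p = 0.00272).

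The rise of AKR1C1 from EL to ML was called in all 16 fits that left out a cow (0.53 to 0.69, largest adjusted p 0.00656) and without the set B libraries (0.62, adjusted p 0.00661), and it was seen in 13 of 13 cows without cows 426, 996 and 3434. It missed the threshold only in the fit that ignored the cow (no replicate block, 0.54, adjusted p 0.0978), among 26 alternatives with adjusted p from 9.05e-05 up. The rise from LP to ML was lost without cow 426 (adjusted p 0.0656), without the 3 cows together (0.49, adjusted p 0.0641) and without the block.

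A further 3 gene rows carry the symbol AKR1C1 in the study's lists, and only primary alignments were counted, so that a read pair matching several near-identical copies can be given to 1 of them alone and the level of a single row is uncertain. Row ENSBTAG00000021368 had medians of 1.87, 2.03 and 2.07 CPM at LP, EL and ML and was not called in time by edgeR's quasi-likelihood test. With a common dispersion it was called for ML versus LP (0.54, adjusted p 0.0145) and ML versus EL (0.64, adjusted p 0.00122). Row ENSBTAG00000039722 had medians of 0.637, 0.400 and 0.891 CPM and rose from EL to ML by 1.19 ± 0.31 (adjusted p 0.00298, edgeR). Row ENSBTAG00000027419 had medians of 6.51, 4.85 and 8.52 CPM and rose from EL to ML by 0.63 ± 0.25 (adjusted p 0.0409, edgeR), a call that was lost without each of 9 cows in turn (33, 164, 419, 426, 430, 756, 1179, 3434 or 3445; 0.46 to 0.73 over the 16 fits). It was also lost in 5 of the 10 other alternatives, namely without set B (0.34), without the EL library of cow 3847 (0.44), without cows 426, 996 and 3434, without a gene filter and without the cow as a block (adjusted p 0.0513 to 0.557). This row split the cows in the same way at each time-point. In 6 cows (33, 426, 430, 756, 782 and 1000; 4 Fert+ and 2 Fert-) it stayed at or below 0.517 CPM in all 3 liver libraries, whereas in the other 10 cows it was at 4.05 CPM or more in every liver library except the EL library of cow 3847, where it was 0.981. The sum of the 4 rows had medians of 32.9, 30.7 and 45.6 CPM and was higher at ML than at EL in 15 of 16 cows (exact permutation p = 0.000122) and higher at ML than at LP in 12 (exact permutation p = 0.00958). Across the 48 liver libraries the described row had Spearman correlations of -0.05, 0.11 and 0.22 with the other rows, given as a description.

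SULT1E1 was higher in mid lactation than at both earlier time-points. At LP it ranged from 0.717 CPM (cow 996) through a median of 3.97 to 17.4 CPM (cow 3434), at EL from 1.73 CPM (cow 756) through 3.71 to 16.3 CPM (cow 982), and at ML from 2.17 CPM (cow 782) through 9.07 to 80.9 CPM (cow 426). The ML value of cow 426 was far above the next highest, 26.7 CPM in cow 3397, and the 3 ranges overlapped. Calving itself left no common direction, with 9 cows up and 7 down (0.11 ± 0.38, adjusted p 0.899, edgeR; exact permutation p = 0.911). ML was above LP in 14 of 16 cows, by 1.06 ± 0.36 on the log2 scale or 2.09-fold (adjusted p 0.0442, edgeR; exact permutation p = 0.00104). ML was above EL in 13 of 16 cows, by 0.96 ± 0.37 or 1.94-fold (adjusted p 0.0384, edgeR; exact permutation p = 0.0162).

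Both calls for SULT1E1 lay near the threshold. ML versus LP passed in 5 of the 16 fits that left out a cow and was lost without cow 33, 419, 426, 430, 829, 982, 996, 1000, 3397, 3445 or 3847 (0.81 without cow 426, to 1.20, largest adjusted p 0.104). ML versus EL passed in 7 of 16 and was lost without cow 33, 419, 426, 430, 829, 1000, 3397, 3434 or 3847 (0.71 without cow 426, to 1.17, largest adjusted p 0.0871). Without cows 426, 996 and 3434 the log2 fold changes were 0.83 (adjusted p 0.111) and 0.60 (adjusted p 0.149), with 11 and 10 of 13 cows higher and exact permutation p of 0.00537 and 0.0779. Over the 26 alternatives the adjusted p ranged from 7.72e-10 to 0.111 for ML versus LP and from 4.98e-08 to 0.149 for ML versus EL.

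CYP1B1, the least expressed by counts, was higher at both lactation time-points than in late pregnancy. At LP it ranged from 0.0582 CPM (cow 982) through a median of 0.720 to 1.52 CPM (cow 3445), at EL from 0.469 CPM (cow 426) through 1.23 to 6.77 CPM (cow 3847), and at ML from 0.272 CPM (cow 782) through 1.48 to 8.51 CPM (cow 829). At EL 6 cows, and at ML 7 cows, lay above every LP value, while the rest overlapped with LP. EL was above LP in 11 of 16 cows, by 1.53 ± 0.42 on the log2 scale or 2.88-fold (adjusted p 0.044, edgeR; exact permutation p = 0.00708). ML was above LP in 13 of 16 cows, by 1.45 ± 0.41 or 2.73-fold (adjusted p 0.0172, edgeR; exact permutation p = 0.00119). EL and ML did not differ in a common direction (-0.08 ± 0.39, adjusted p 0.89, edgeR; 7 cows up and 9 down, exact permutation p = 0.986).

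Of the 4 cows with the highest CYP1B1 at EL, 1 (cow 756) was also among the 4 highest at ML. The 4 highest at EL were cows 3847, 756, 164 and 982, at 6.77, 4.97, 4.13 and 3.96 CPM, and their ML values were 0.727, 2.36, 0.932 and 1.68 CPM. The 2 highest at ML were cows 829 and 426, at 8.51 and 6.36 CPM, and their EL values were 0.918 and 0.469 CPM. The EL call was lost in 12 of the 16 fits that left out a cow (all but those without cow 426, 829, 1000 or 3434; 1.33 to 1.70, largest adjusted p 0.116), without the EL library of cow 3847 (1.29) and without set B (1.27, adjusted p 0.277), and it was kept without cows 426, 996 and 3434 (1.81, adjusted p 0.00708), within a range of adjusted p from 1.29e-13 to 0.277 over 26 alternatives. The ML versus LP call was kept in all 16 such fits (1.27 to 1.61, largest adjusted p 0.0408) and was lost only without set B (1.11, adjusted p 0.114) among 26 alternatives.

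**Figure D2:**
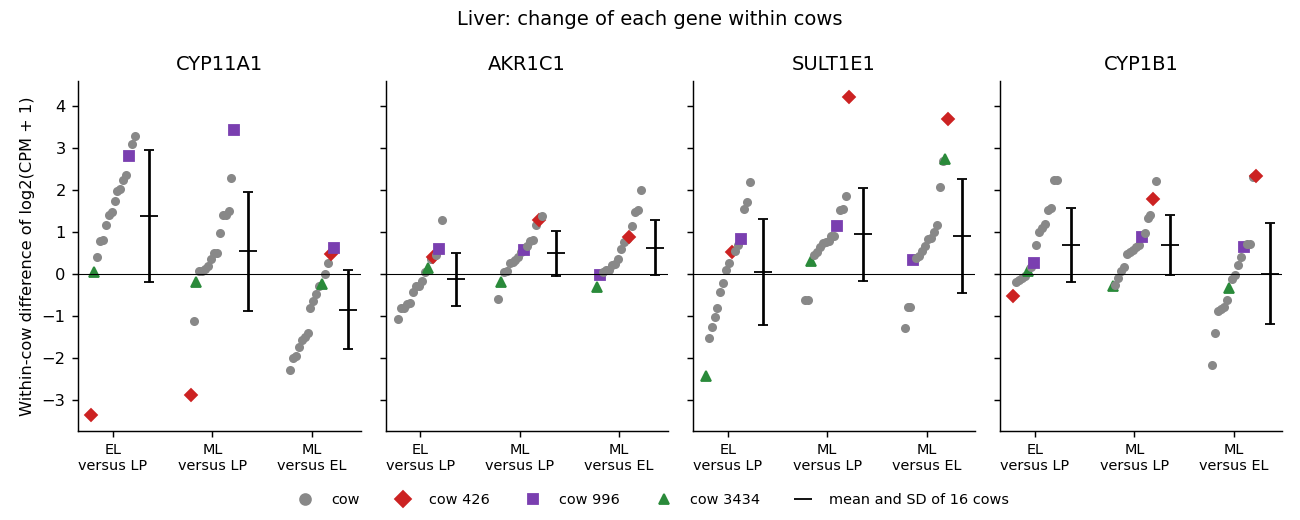
Difference within each cow in log2(CPM + 1) (vertical axis) for the 3 contrasts of time-points (horizontal axis), with cows 426, 996 and 3434 marked and the mean and SD of the 16 cows as a bar beside the points. All points of CYP11A1 for EL versus LP except that of cow 426 (-3.36) lie above 0, and the points of AKR1C1 span the smallest range.

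Read against all 13815 genes tested in liver, of which 2.4% were called between EL and LP, 1.04% as higher and 1.36% as lower, 2 of the 4 genes (CYP11A1 and CYP1B1) were called and both were higher. Between ML and LP, where 15.2% of genes were called, 8.85% as higher and 6.32% as lower, 3 of 4 were called higher (AKR1C1, SULT1E1 and CYP1B1). Between ML and EL, 41.6% of all genes were called, 21.4% as higher and 20.3% as lower, so that the 3 called here (AKR1C1 and SULT1E1 higher, CYP11A1 lower) were 3 of 4 against a background in which such calls were common. The background moved with the libraries. For EL versus LP, ML versus LP and ML versus EL, 15.2%, 9.96% and 44.7% of genes were called without cows 426, 996 and 3434, then 0.0%, 11.2% and 29.7% without set B, and 0.966%, 8.87% and 27.9% without a gene filter. The contrasts that were called differed between the genes, but several calls were lost in other fits, as given above, and the difference between genes was not tested. By these calls CYP11A1 was highest on the day after calving, CYP1B1 was up from then on, and AKR1C1 and SULT1E1 were up in mid lactation. Across the 48 liver libraries, which share cows and time-points, the Spearman correlation was 0.42 for CYP11A1 with CYP1B1, 0.31 for SULT1E1 with CYP1B1, 0.21 for CYP11A1 with AKR1C1, and at most 0.12 in size for the others. The within-cow changes from LP to EL of the 4 genes were correlated with Pearson's r of -0.05 to 0.34 over 16 cows, and none of these 6 relations passed a permutation test after adjustment.

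The level of the described AKR1C1 row in liver was correlated within cows between time-points. As said above, the level of a single row is uncertain, and the correlation was not computed for the sum of the rows named AKR1C1. That sum was lowest in cow 426 at LP (12.8 CPM), cow 3847 at EL (7.71 CPM) and cow 782 at ML (17.1 CPM). The cows that had much AKR1C1 in liver at LP also had much at EL (Pearson's r = 0.75, Spearman's rho = 0.67, n = 16 cows) and at ML (r = 0.75, rho = 0.74), and EL and ML went together likewise (r = 0.73, rho = 0.63). Permutation tests with 100000 resamples gave an adjusted p of 0.00693 for each r and of 0.0281 to 0.0439 for rho, over the 21 relations computed. Without the 2 cows farthest from the median r was 0.57, 0.61 and 0.59. Within genotypes it was 0.86, 0.78 and 0.61 among the 8 Fert+ cows and 0.54, 0.77 and 0.59 among the 8 Fert- cows, and without set B it was 0.85, 0.74 and 0.76. Without cows 426, 996 and 3434 the r of AKR1C1 was 0.78, 0.80 and 0.78 and that of CYP11A1 was 0.70, 0.74 and 0.74, for LP with EL, LP with ML and EL with ML. Over all 16 cows CYP11A1 had r = 0.25 for LP with EL and r = 0.43 for LP with ML, not past the threshold by permutation, and the relation of EL with ML had r = 0.62 (adjusted permutation p = 0.053) and rho = 0.64 (adjusted p 0.0439), and for SULT1E1 the relation of LP with ML had r = 0.55 (adjusted permutation p = 0.118) and rho = 0.68 (adjusted p 0.0356). CYP1B1 had r = -0.16 between LP and EL, 0.35 between LP and ML and -0.28 between EL and ML, none past the threshold by permutation after adjustment. The differences between the genes in these correlations were not tested.

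Liver biopsies hold several cell types, and in bulk libraries fewer cells of a type and less RNA per cell cannot be told apart. The summed CPM of 6 hepatocyte markers had medians of 134900 at LP, 113100 at EL and 128800 at ML and ranged from 64490 to 192700. ALB and FGB had the highest medians of the 6 (90080 and 23100 CPM over the 48 libraries). Between EL and LP 2 of the 6 were called lower and 0 higher, where 1.36% and 1.04% of all genes were. Between ML and EL 3 were called higher and 2 lower, against 21.4% and 20.3% of all genes. Among the myofibre markers, 7 of the 8 rows were at 0 in 33 or more of the 48 liver libraries. The leukocyte list was matched by S100A8 and S100A9 only, with summed medians of 1.65, 2.64 and 1.56 CPM and a highest value of 134.9 CPM at EL in cow 164. Across the 48 libraries CYP11A1 had Spearman correlations of 0.47 with the leukocyte and -0.46 with the hepatocyte sum, and CYP1B1 of 0.40 and -0.36. AKR1C1 and SULT1E1 stayed between -0.01 and 0.12 with these lists. Over all 7 marker lists AKR1C1 ranged from -0.13 to 0.28 and SULT1E1 from -0.16 to 0.33. The highest value for SULT1E1 was with the 2 matched rows of biliary markers, whose summed medians were 21.7, 17.6 and 27.4 CPM at LP, EL and ML and with which AKR1C1 had a correlation of 0.19. The ML libraries of cows 829 and 426, which held the highest CYP1B1 at ML, were low in hepatocyte markers (64490 and 77480 CPM) and high in the 4 matched endothelial and stromal markers (247.8 and 201.4 CPM against a median of 99.4). At EL the highest CYP1B1 was in cows 3847 and 756, where the sum of these 4 markers was low (33.9 and 33.8 CPM against a median of 73.6). Over the 48 libraries CYP1B1 had a Spearman correlation of -0.10 with this sum. The part of the marker levels in the results was not tested. None of the 10 listed markers of adrenal cortex and luteal cells, the tissues best known for CYP11A1, could be matched to an identifier here, and they were not analysed.

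In muscle only AKR1C1 of the 4 genes was counted well enough to be tested. CYP11A1 had 18 counts over all 48 muscle libraries and was at 0 in 35 of them, and SULT1E1 had 1 count, in the ML library of cow 33, which also had the highest sum of hepatocyte markers of any muscle library (155.8 CPM). A count of 0 allows up to 3 counts, or 0.136 to 0.196 CPM at the depths of these libraries, for counting error only. CYP1B1 had 262 counts, reached 1.27 CPM (cow 3847 at EL) and did not pass the filter. Fitted without it, EL versus LP was 0.80 with an adjusted p of 0.093 (edgeR, 37.3% of genes called) and 10 of 16 cows were higher (exact permutation p = 0.049).

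AKR1C1 in muscle dipped after calving. At LP it ranged from 0.336 CPM (cow 3847) through a median of 1.17 to 5.78 CPM (cow 164), at EL from 0.130 CPM (cow 426) through 0.441 to 1.45 CPM (cow 164), and at ML from 0.401 CPM (cow 996) through 1.55 to 8.71 CPM (cow 164). Cow 164 was the highest at each time-point, and 10 cows at ML lay above every EL value. EL was below LP in 13 of 16 cows, with a log2 fold change of -1.40 ± 0.26, 2.64-fold lower (adjusted p 2.02e-05, edgeR; exact permutation p = 0.000946). From EL to ML it rose in 14 of 16 cows by 1.68 ± 0.25, 3.21-fold (adjusted p 6.15e-07, edgeR; exact permutation p = 0.000214), and ML did not differ from LP beyond the spread (0.29 ± 0.23, adjusted p 0.481, edgeR). Both calls were kept in each of the 16 fits that left out a cow, within a range of -1.55 to -1.30 and of 1.58 to 1.81. Such calls were common in muscle, where 57.4%, 8.98% and 63.0% of 12675 genes were called for EL versus LP, ML versus LP and ML versus EL. The summed myofibre markers moved with it, from a median of 182600 CPM at LP to 60940 at EL and 206700 at ML, with a Spearman correlation of 0.51 to AKR1C1 over the 48 libraries. The sum of the 4 matched endothelial and stromal markers also dipped, with medians of 319, 268 and 344 CPM and a correlation of 0.41. With the leukocyte sum the correlation was -0.32. The part of these lists in the result was not tested. The values rest on 3 to 160 counts per library.

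The time course of AKR1C1 differed between the tissues. In the fit over all 96 libraries the change from LP to EL was 1.27 ± 0.30 higher on the log2 scale in liver than in muscle (adjusted p 0.000776, edgeR), and the liver minus muscle difference of the change from EL to ML was -1.03 ± 0.30 (adjusted p 0.0041, edgeR). The changes from LP to ML, 0.51 in liver and 0.29 in muscle, did not differ beyond the spread (0.24 ± 0.28, adjusted p 0.651, edgeR). Of 14613 genes tested, 28.9%, 9.28% and 38.7% differed between tissues in EL versus LP, ML versus LP and ML versus EL. Between liver and muscle AKR1C1 had r = 0.34 at LP, 0.04 at EL and 0.37 at ML and rho = 0.52, -0.05 and 0.27 over 16 cows, none past the threshold by permutation after adjustment. Without the 2 cows farthest from the median of liver, r was 0.72, 0.22 and 0.32. At LP it was -0.15 among the Fert+ and 0.75 among the Fert- cows. CYP1B1 entered this fit only through its counts in liver, so its time course was not compared between tissues.

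**Figure D3:**
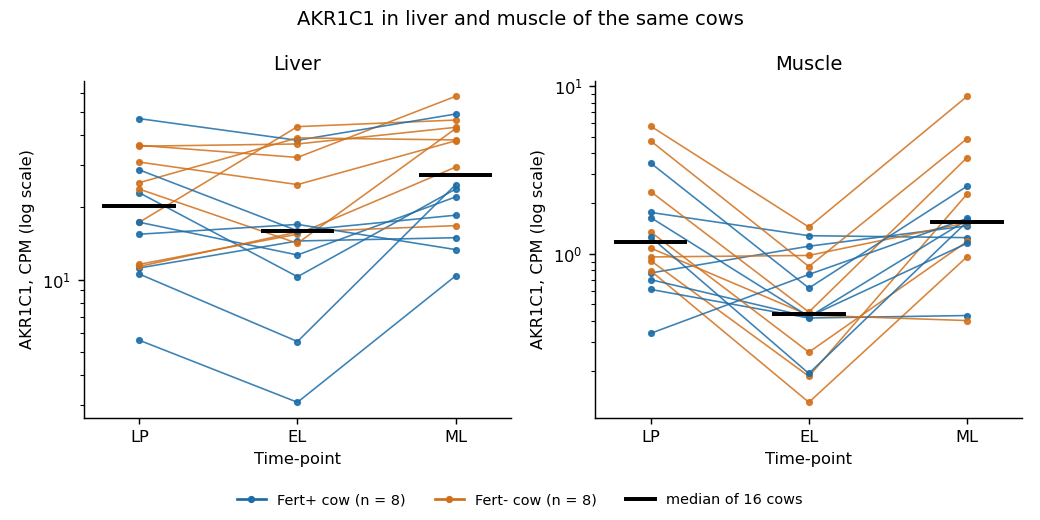
AKR1C1 in CPM (vertical axes, log scale, with different ranges in the panels) at LP, EL and ML in liver and in muscle of the same 16 cows, Fert+ in blue and Fert- in orange, with the median as a black bar. In muscle the median goes from 1.17 to 0.441 and 1.55 CPM, and in liver from 20.2 to 15.9 and 27.2 CPM.

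Between genotypes, the contrast on which the study picked these genes, the point estimates in liver at ML were lower in Fert+ cows for all 4, and edgeR's quasi-likelihood test called no gene of the whole table, while other tools called some, as given further on. The values are therefore a description and not independent evidence. At ML, CYP11A1 ranged from 13.4 through a median of 34.5 to 95.7 CPM in Fert+ and from 18.7 through 72.9 to 208 CPM in Fert- cows (log2 fold change of Fert+ relative to Fert- -1.15 ± 0.47, adjusted p 0.357). AKR1C1 ranged from 10.4 through 20.3 to 49.0 CPM in Fert+ and from 16.8 through 40.5 to 58.1 CPM in Fert- cows (-0.82 ± 0.28, adjusted p 0.296), and 7 of the 8 Fert+ cows lay below the Fert- median. SULT1E1 ranged from 2.17 through 5.68 to 26.7 CPM in Fert+ and from 2.80 through 9.57 to 80.9 CPM in Fert- cows (-0.82 ± 0.69, adjusted p 0.662), and without cow 426 the estimate was 0.17. CYP1B1 ranged from 0.272 through 1.30 to 2.36 CPM in Fert+ and from 0.653 through 1.56 to 8.51 CPM in Fert- cows (-1.15 ± 0.53, adjusted p 0.386). The genotypes overlapped in all 4 genes.

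At LP and EL the estimates for CYP11A1 were -1.02 ± 0.73 and -0.86 ± 0.44, and those for AKR1C1 -0.27 ± 0.37 and -0.92 ± 0.40. SULT1E1 (0.19 ± 0.60 and -0.86 ± 0.46) and CYP1B1 (0.36 ± 0.48 and 0.43 ± 0.56) were estimated higher in Fert+ cows at LP, CYP1B1 also at EL, and none of these passed the threshold. The CYP11A1 estimate at LP rested on cow 426, without which it was -0.18. The quasi-likelihood test of edgeR called 0 of 12872, 13047 and 13235 genes in liver at LP, EL and ML, while 842, 1530 and 1640 had an unadjusted p under 0.05 and DESeq2 called 0, 6 and 77. The edgeR exact test with 1 common dispersion, the kind of test that gives every gene the same spread, called 306, 301 and 279 genes, or 2.38%, 2.31% and 2.11%. Among them were CYP11A1 at LP and ML, AKR1C1 at EL and ML, and SULT1E1 and CYP1B1 at ML, with adjusted p of 2.19e-05 (CYP11A1 at LP), 1.36e-06 (CYP11A1 at ML), 0.0297 and 0.00318 (AKR1C1 at EL and ML), 0.0042 (SULT1E1) and 5.24e-05 (CYP1B1). Exact permutation of 8 against 8 cows, with no adjustment, gave p = 0.0477 for CYP11A1 at ML and p = 0.025 and p = 0.0137 for AKR1C1 at EL and ML, and p of 0.11 or more for the other 9 values.

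**Figure D4:**
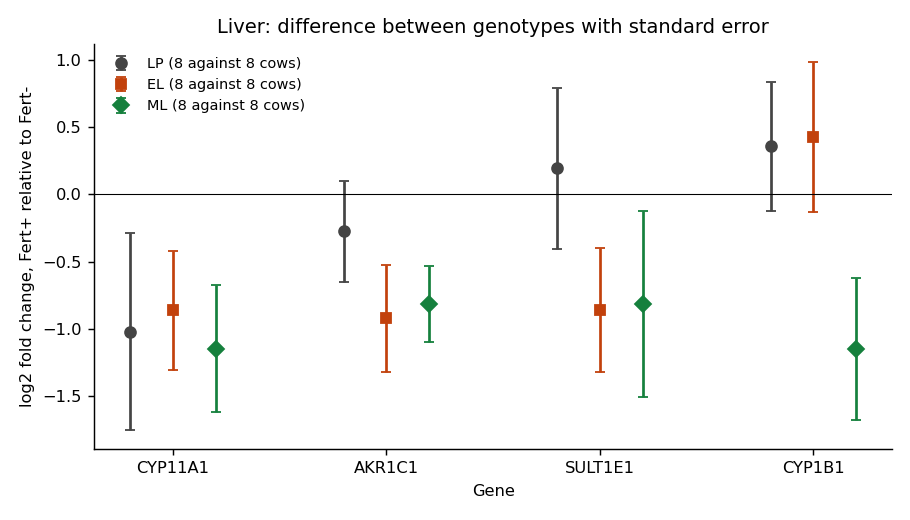
Log2 fold change of Fert+ relative to Fert- cows in liver (vertical axis) with its standard error for the 4 genes (horizontal axis) at LP, EL and ML, 8 against 8 cows. At ML the estimates of all 4 genes lie between -1.15 and -0.82, and the study had chosen the genes on this contrast.

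The time course itself was not shown to differ between genotypes. The interaction of genotype and time-point had adjusted p of 0.97 for CYP11A1, 0.678 for AKR1C1, 0.816 for SULT1E1 and 0.745 for CYP1B1 in liver, and the edgeR test called 0 of 13815 genes there, with 1067 at an unadjusted p under 0.05. In muscle, AKR1C1 had a log2 fold change between genotypes of -0.78 ± 0.50 at LP, 0.13 ± 0.46 at EL and -1.04 ± 0.51 at ML (adjusted p 0.803, 0.95 and 0.662, edgeR), and an interaction with an adjusted p of 0.627, where 0 of 12675 genes were called and 1158 had an unadjusted p under 0.05. The ML estimate in muscle was -0.56 without cow 164. At LP, EL and ML edgeR called 0, 1 (0.00831%) and 0 genes between genotypes in muscle and DESeq2 27, 119 and 10, while 800, 1426 and 918 had an unadjusted p under 0.05. The exact test with 1 common dispersion called 1.79%, 3.64% and 1.78% of genes, among them AKR1C1 at LP (adjusted p 0.0174) and at ML (adjusted p 1.17e-05).

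The other genes of steroid metabolism with a known symbol were mostly lower at EL than at LP by their point estimates and more often called higher than lower at ML than at EL. Of 68 symbols in 4 lists (synthesis from cholesterol, reductases and dehydrogenases, conjugation and release, and hydroxylation by P450), 28 were matched, and without the 4 genes 29 rows were tested in liver. Between EL and LP 0 of the 29 were higher and 5 lower, where 1.04% and 1.36% of all genes were, with a median log2 fold change of -0.36 against 0.01 over all genes. Between ML and LP 0 were higher and 3 lower (median 0.02), against 8.85% and 6.32% of all genes. Between ML and EL 12 were higher and 2 lower (median 0.31 against 0.00 over all genes), against 21.4% and 20.3% of all genes, and the 12 include 2 of the other rows named AKR1C1. The difference between the 29 rows and all genes was not tested. None of 17 listed steroid receptors and regulators could be matched.

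By list, 6 of 10 reductase rows were higher at ML than at EL and 1 was lower at EL than at LP. The latter was HSD11B1, which regenerates active glucocorticoid, with medians of 583, 419 and 740 CPM (-0.54 ± 0.14 over calving, adjusted p 0.0372, and 0.88 ± 0.14 from EL to ML, adjusted p 3.31e-05, edgeR). Of the 9 P450 rows, 3 were lower at EL than at LP and 6 were higher at ML than at EL. CYP2E1, which oxidises ethanol and ketones, had medians of 4412, 2171 and 4974 CPM (-1.002 ± 0.26, adjusted p 0.0372, and 1.24 ± 0.26, adjusted p 0.000475, edgeR), and the drug-metabolising CYP2C19 had medians of 1788, 610 and 1496 CPM (-1.37 ± 0.38, adjusted p 0.0487, and 1.41 ± 0.38, adjusted p 0.00405, edgeR). The third P450 row that fell was CYP1A2, which was chosen for naming after its values were seen (-0.85 ± 0.20, adjusted p 0.0254, edgeR). CYP1B1 thus moved up over calving while the called members of its list moved down. All 3 are expressed in hepatocytes, whose summed markers also had their lowest median at EL. CYP2E1 belongs to that marker list, where 2 of 6 members, CYP2E1 among them, were called lower at EL than at LP. The part of the hepatocyte markers in the result was not tested.

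Of the 9 conjugation rows, 1 was lower at EL than at LP and 2 were lower at ML than at LP, while SULT1E1 was higher at ML. The sulfotransferase SULT1C3 had medians of 1.17, 1.39 and 0.588 CPM and fell from LP to ML by 1.08 ± 0.27 (adjusted p 0.00816, edgeR). UGT1A3, a glucuronosyltransferase, had medians of 0.624, 0.253 and 0.400 CPM and fell over calving by 1.05 ± 0.28 (adjusted p 0.0405, edgeR). The other row of synthesis from cholesterol was CYB5A, an electron donor of P450 enzymes, with medians of 922, 756 and 766 CPM (-0.49 ± 0.17 over calving, adjusted p 0.106, edgeR), also named after its values were seen.

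**Figure D5:**
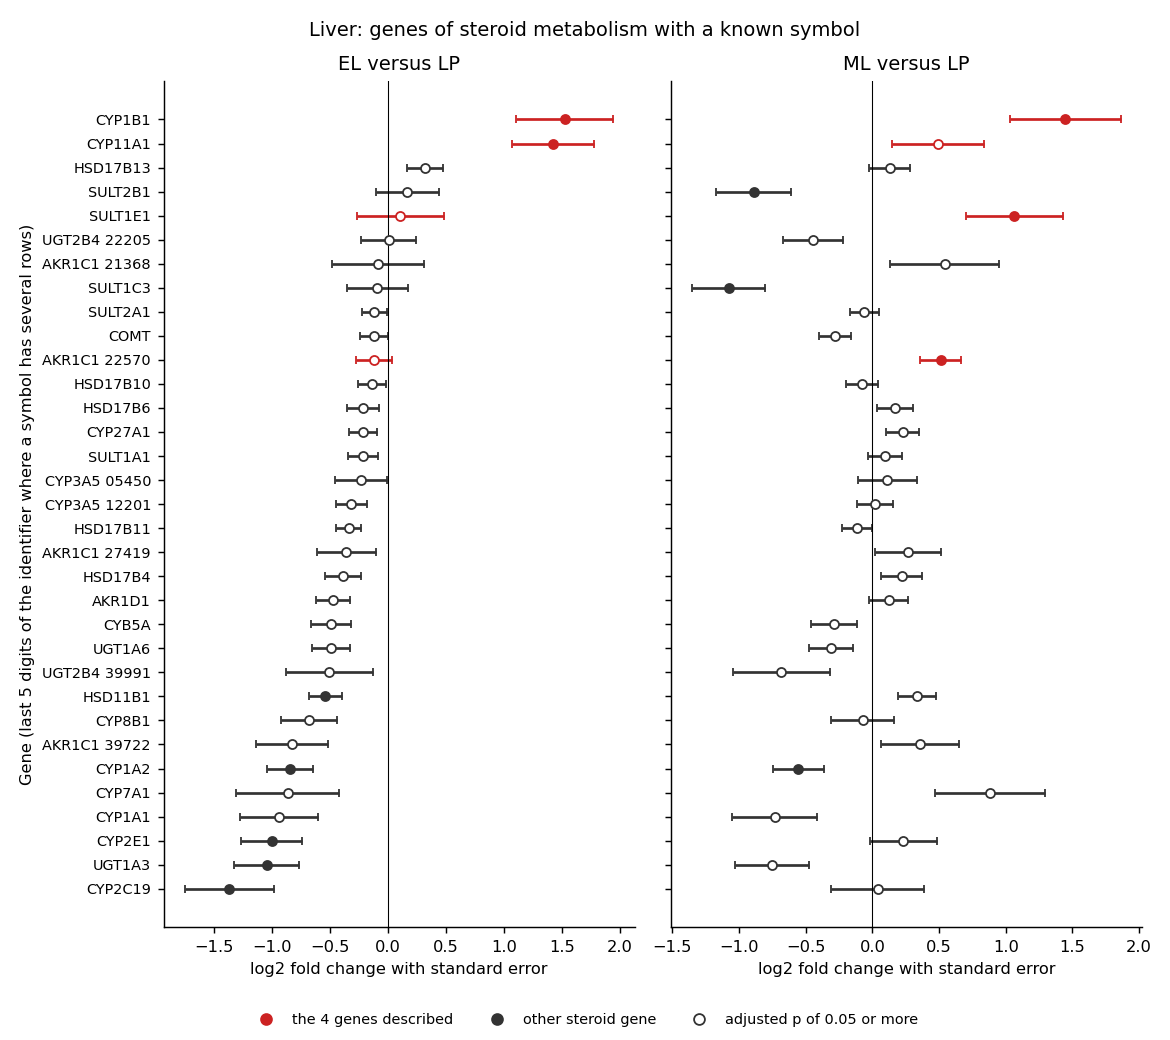
Log2 fold changes with standard errors (horizontal axes) of the genes of steroid metabolism with a known symbol in liver (vertical axis), for EL versus LP and ML versus LP, with the 4 genes in red and open points for an adjusted p of 0.05 or more. CYP1B1 (1.53) and CYP11A1 (1.42) lie above all other rows for EL versus LP, and 5 other rows, from CYP2C19 (-1.37) to HSD11B1 (-0.54), were called lower. Without the set B libraries no gene was called for EL versus LP.

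The genes whose pattern over the 48 liver libraries was most like each of the 4 were mostly without a known symbol here. The highest Spearman correlations were 0.76 for CYP11A1 (ENSBTAG00000012989), 0.73 for AKR1C1 (ENSBTAG00000019066), 0.65 for SULT1E1 and 0.69 for CYP1B1, where the median over all genes lay between -0.01 and 0.01 for each. Among the 3 nearest of each, the chemokine CCL3 (0.62 with SULT1E1) and the metalloprotease ADAMTS4 (0.63 with CYP1B1) had a symbol. The libraries share cows, time-points and depth, so these are descriptions.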

How the data were processed

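The RNA-seq values are read counts per gene and library, deposited by the authors without normalization. Per the submitters' notes and the methods, reads were called with CASAVA 1.8, trimmed, aligned by STAR (genome UMD_3.1), and primary alignments in proper pairs were counted with featureCounts where a pair fell in a single Ensembl70 gene. A further 96 count columns without sample names were not used. Symbols came from the study's lists (2161 identifiers).

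CPM and tests were computed here with edgeR 4.0.16 (TMM factors, filterByExpr, robust quasi-likelihood test, two-sided, Benjamini-Hochberg over all genes tested, threshold 0.05), limma 3.58.1 and DESeq2 1.42.0 under R 4.3.3, and with scipy 1.17.1, pandas 2.3.3 and numpy 2.4.6 under Python 3.11.15. The time course was fitted within cows over 48 libraries per tissue, genotypes (8 against 8 cows) per time-point, and tissues over 96 libraries. Same-numbered libraries come from the same cow. Their residuals correlated above 0.1 in 39 of 48 liver and 42 of 48 muscle pairs (medians 0.235 and 0.258). Exact permutation tests used log2(CPM + 1). Standard errors are the log2 fold change divided by the square root of edgeR's F statistic. No 2 of 336 library pairs within groups held identical counts. The libraries of a tissue had median totals of 20466943 and 17612182 counts. Fits were also run on simulated counts. These held no differences between cows, no set B and no outlying libraries, so they cannot show how the fits behave with such features.

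The members and lists were chosen with earlier results of these data known, and alternatives added later are named as such. Besides the 4 genes, those named are, per steroid list, the 3 with the largest change among those called in liver for EL or ML versus LP, rows sharing a member's symbol, and the 3 nearest patterns. Alternatives were RLE factors, no gene filter, no robust estimation, a common dispersion, DESeq2, no cow block, leaving out each cow, leaving out set B, a single fit of 48 libraries and counts summed over time-points.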

Additional observations from a re-analysis of the deposited data

Results flagged for a closer look

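The highest cow of a group of 8 was tested for its gap to the next, relative to the range of the group. The test used CPM without logs, and 7 of 30 groups were picked out. Its rate of 1 in 20 by chance holds for normally distributed values, which was not checked for CPM. The count is therefore a description and is not compared with chance. In liver at LP, CYP11A1 stood at 122.8 CPM in cow 430, against 44.06 in the next Fert+ cow, and at 292.2 CPM in cow 426, against 77.38 in the next Fert- cow. The latter is the library labelled LP of the cow in which only 16 of the 300 genes with the clearest time course in the other cows changed the same way over calving. AKR1C1 in liver of Fert+ cows was led by cow 430 both at EL (38.09 CPM, next 16.98) and at ML (49.03 CPM, next 24.89, a set B library). The same cow also had the highest AKR1C1 in liver at LP. SULT1E1 in liver was high in cow 3445 at EL among Fert+ cows (11.82 CPM, next 4.485) and in cow 426 at ML among Fert- cows (80.92 CPM, next 17.9). In muscle at LP, AKR1C1 stood at 3.486 CPM in cow 3445, against 1.769 in the next Fert+ cow. In liver this cow had the lowest value of the described AKR1C1 row at each time-point. The sum of the rows named AKR1C1 was instead lowest in cows 426, 3847 and 782 at LP, EL and ML.

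A test of the difference between tissues picked out the time course of AKR1C1. The change from LP to EL was higher in liver than in muscle by 1.269 on the log2 scale (adjusted p 0.000776, edgeR), and the liver minus muscle difference of the change from EL to ML was -1.028 (adjusted p 0.0041, edgeR).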

How the results depend on the processing

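The alternatives left the direction of every called change of the 4 genes in time as reported, and differed in which calls passed. The adjusted p-values are from edgeR unless DESeq2 is named, and where a call was lost or gained the cause was not tested. Ignoring the cow (no replicate block) lost the calls, with log2 fold changes, of CYP11A1 (EL versus LP 1.03, adjusted p 0.144; ML versus EL -0.85, adjusted p 0.0904), AKR1C1 (ML versus LP 0.42, adjusted p 0.319; ML versus EL 0.54, adjusted p 0.0978) and SULT1E1 (ML versus LP 1.26, adjusted p 0.0544), and turned the sign of values that passed in no fit, SULT1E1 EL versus LP (-0.15) and CYP1B1 ML versus EL (0.028). The genotype contrasts hold 1 library per cow, so the block does not apply to them. Without a gene filter CYP1B1 EL versus LP (1.53, adjusted p 0.065), SULT1E1 ML versus LP (1.06, adjusted p 0.0703) and SULT1E1 ML versus EL (0.95, adjusted p 0.0621) were not called. A common dispersion called CYP11A1 ML versus LP (0.49, adjusted p 0.0114).

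Without the set B libraries CYP11A1 EL versus LP (1.23) and ML versus EL (-0.72), CYP1B1 EL versus LP (1.27) and ML versus LP (1.11), and SULT1E1 ML versus LP (1.23) and ML versus EL (0.98) were not called. The following alternatives were chosen after seeing the data. Without cows 426, 996 and 3434 the calls of AKR1C1 ML versus LP (0.49) and of SULT1E1 ML versus LP (0.83) and ML versus EL (0.60) were lost. Without the EL library of cow 3847 CYP1B1 EL versus LP was 1.29 (adjusted p 0.0882) and ML versus EL was 0.12, and with library totals alone the latter was 0.017. The mean within-cow change of CYP1B1 from EL to ML was -0.006 with an offset of 0.1. With library totals alone the median of all genes in muscle moved to 0.37 for EL versus LP and -0.40 for ML versus EL, where AKR1C1 was at -1.03 and 1.26, and the genes called were 7492 higher and 1103 lower (3786 and 3485 with TMM) and 1258 and 7759 (3992 and 3989). In liver such totals gave 194 higher and 75 lower for EL versus LP (144 and 188 with TMM), 1380 and 368 for ML versus LP (1222 and 873) and 3020 and 1769 for ML versus EL (2950 and 2799).

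Leaving out each cow in turn gave log2 fold changes in liver of 1.28 to 1.70 (CYP11A1), -0.11 to 0.29 (SULT1E1) and 1.33 to 1.70 (CYP1B1) for EL versus LP, 0.45 to 0.59 (AKR1C1) and 0.81 to 1.20 (SULT1E1) for ML versus LP, and -1.08 to -0.81 (CYP11A1), 0.71 to 1.17 (SULT1E1) and -0.32 to 0.16 (CYP1B1) for ML versus EL. Between genotypes it gave -0.23 to 0.64 (SULT1E1, LP), -0.021 to 0.76 (CYP1B1, EL) and -1.18 to 0.17 (SULT1E1, ML) in liver and -0.063 to 0.48 for AKR1C1 in muscle at EL. Without cows 426, 996 and 3434 the genotype estimate of SULT1E1 at LP was -0.51, and without the EL library of cow 3847 that of CYP1B1 at EL was -0.021.

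The test with a common dispersion called the genotype contrasts of CYP11A1 at LP (-1.02) and ML (-1.15), AKR1C1 at EL (-0.92) and ML (-0.82), SULT1E1 at ML (-0.81) and CYP1B1 at ML (-1.16) in liver, and of AKR1C1 at LP (-0.78) and ML (-1.04) in muscle. Its calls at LP, EL and ML numbered 306, 301 and 279 for liver and 214, 438 and 214 for muscle. By DESeq2 there were 6 and 77 for liver at EL and ML and 27, 119 and 10 for muscle. With all 48 libraries of a tissue fitted together, 362 genes of liver and 564 of muscle passed at EL, against 0 and 1 by the quasi-likelihood test. In muscle, leaving out a cow gave 0 to 4, 0 to 7 and 0 to 2 genes, and 0 at EL without set B, where 1362 had an unadjusted p under 0.05. The 332 genes called in liver for EL versus LP became 193 without a gene filter, 895 by DESeq2, 1123 with a common dispersion, 7 to 1451 without a cow, 2104 without cows 426, 996 and 3434, and 0 without set B, where 1624 had an unadjusted p under 0.05. The 2095 called for ML versus LP became 1382 without the 3 cows and 1368 to 2371 without 1 cow. Depth limits CYP1B1 most in liver, and all but AKR1C1 in muscle.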

Other observations

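The 3 further rows named AKR1C1 reached at most 0.342 CPM in any muscle library, and their sum with the described row was higher at ML than at EL in 16 of 16 cows (exact permutation p = 3.05e-05, the smallest this test can give) and lower at EL than at LP in 13 of 16 (exact permutation p = 0.000519). Of the other 29 rows of steroid metabolism, 9 passed the filter in muscle. Between EL and LP 2 of them were higher and 0 lower there, where 57.4% of all genes in muscle were called, with a median log2 fold change of 0.13 against 0.01 over all genes, while in liver 0 of 29 were higher and 5 lower. Between ML and EL 1 was higher and 3 lower in muscle, where 63.0% of all genes were called. The difference between the tissues in these counts was not tested.

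Hepatocyte markers in muscle libraries had summed medians of 2.81, 2.77 and 10.9 CPM at LP, EL and ML, with 155.8 CPM in the ML library of cow 33 and 144.7 in the next. AKR1C1 in muscle had a Spearman correlation of 0.10 with this sum over 48 libraries, and CYP11A1 in muscle had its highest count, 4, in that library of cow 33.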
